A study of Arabidopsis thaliana with 18 samples.

Results

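Seedlings of Arabidopsis thaliana were grown in the dark and moved into white light (WL). Of the 34212 genes in the deposited gene table, 63 had a mean transcript level high at 60 min and low again at 360 min. These genes were chosen by their own normalized read counts, that is, counts per gene divided by a size factor for the library. The mean over all 18 libraries had to be at least 20, which 14677 genes reached. The 60 min mean had to be at least 3 times the dark mean and at least 2 times the 360 min mean, the 360 min mean had to stay below 2 times the dark mean, and each 60 min library had to lie above each dark library. Height at 60 min over dark and over 360 min is thus how the set was made, and it is described here with no test. Only the groups at 15, 30 and 150 min, which entered the choice through the minimum mean alone, were tested against each other.

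All seedlings were wild type of the Columbia-0 (Col-0) ecotype, grown for 5 days without light, and polyA RNA came from pooled whole seedlings. Each of the 6 groups held 3 biological replicates: dark, and 15, 30, 60, 150 or 360 min of WL. Dark seedlings were sampled only at the start, so light exposure and elapsed time cannot be told apart. In RNA from whole seedlings, fewer cells of a type and less RNA per cell cannot be told apart either.

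Estimated counts summed to between 3577432 and 16156302 per library, and to between 1999671 and 10821472 without the plastid 23S ribosomal RNA. The 3 libraries at 60 min were among the shallower, with 1999671, 3079395 and 3456720 such counts. Replicate 3 at 60 min stood apart, with 3.37% of its counts on 23S RNA against 20.2% to 83.9% in the other 17 libraries. Among the 60 min libraries it gave the highest TPM (abundance scaled by transcript length and library total, here without 23S RNA) for 45 of the 63 genes, and for 54.9% of 14675 genes with a mean of at least 20. The summed TPM of 12 tissue markers ranged from 863 to 1323 at 60 min and from 984 to 2537 in the dark, and these ranges overlap. PYK10, a marker of root and hypocotyl, was the most abundant at 686 to 1147 TPM at 60 min. It made up most of these sums, such as 686 of 863 TPM in replicate 1 at 60 min. The root endodermis marker CASP1 was at 112 to 178 TPM at 60 min, and the root tip marker PLT1 at 0 to 0.801. The root hair markers COBL9, EXPA7 and LRX1 were at or near 0.

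Deetiolation is the switch from growth in the dark to growth in the light. Phytochromes and cryptochromes perceive the light, and phytochrome-interacting factors (PIFs), which bind G-box and related E-box DNA sequences, are then degraded. The circadian clock is a loop of transcription factors in which the morning MYB proteins CCA1 and LHY repress evening genes and pseudo-response regulators (PRRs) repress CCA1 and LHY. Light is one of the signals that set its phase, and several clock genes are known to respond to a light pulse.

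Of the 63 genes, 58 were annotated as protein coding, 2 as long noncoding RNA, 1 as another noncoding RNA and 1 as a transcribed pseudogene, and AT5G15948 had no entry in the RefSeq gene table. The group mean was highest at 60 min for 59 genes and at 150 min for 4, namely RXW8, IQD12, AT4G17670 and RABG3c. Means at 60 min ran from 42.8 to 1931 normalized read counts with a median of 135, and 25 genes had a 60 min mean below 100. The 60 min mean was 3.02 to 47.5 times the dark mean (median 4.28). It was 2.01 to 113 times the 360 min mean (median 3.83). The ratio of 113 is that of AT5G46900, which had 0, 0 and 14 reads at 360 min. AT5G46900 read 95.9, 106 and 528 normalized counts at 60 min. At 360 min the median gene was at 1.32 times its dark mean.

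The genes differed in how near their 30 and 150 min means were to the 60 min mean. At 30 min the median gene stood at 0.419 of its 60 min mean, and at 150 min at 0.418. Taking 50% of the 60 min mean as a mark, 11 genes had reached it by 30 min and were below it at 150 min, among them RVE2, LNK3, PRR5 and MBF1C. Another 15 were below it at 30 min and still above it at 150 min, among them CCA1, BBX19, BETA-OHASE 2 and IQD12. In 28 genes, including LHY, LNK4, PKS1, GPX3 and FRO7, both neighbouring groups were below the mark, and in 9, including NAC032 and SPS2F, both were above it.

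**Figure D1:**
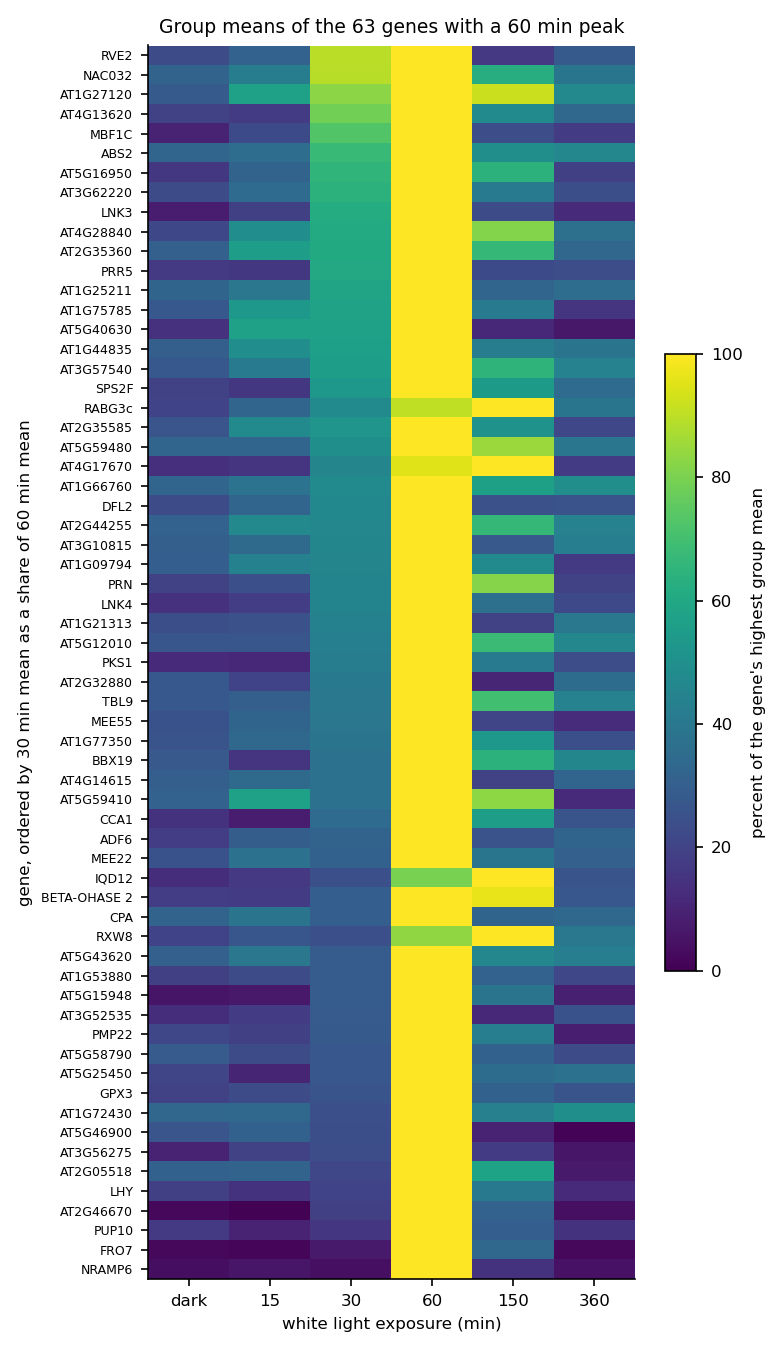
Group means of the 63 genes (rows) in the dark and after 15 to 360 min of WL (columns), each drawn as a percent of the highest group mean of that gene, with rows ordered by the 30 min mean as a share of the 60 min mean. The brightest cell lies at 60 min in 59 rows and at 150 min in 4, and the rows at the top are already bright at 30 min.

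Of the gene lists used, that of clock components held the most of the 63 genes, 6 of its 24, where 0.429% of all genes with a mean of at least 20 met the rule. Genes outside the lists were not grouped by role. The 6 clock genes are the MYB factors CCA1, LHY and RVE2, the pseudo-response regulator PRR5, and the cofactors LNK3 and LNK4 of the night light-inducible and clock-regulated family. RVE2 and LNK4 had the highest 60 min means of all 63 genes, but without the third 60 min library the mean of LNK4 was 762, below those of CCA1 (915) and LNK3 (770).

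CCA1 (AT2G46830, chromosome 2, 19245591 to 19248915, plus strand of TAIR10.1) read 102, 148 and 122 normalized counts in the 3 dark libraries and 82.9, 69.1 and 42.2 at 15 min. It read 262, 262 and 383 at 30 min, then 434, 1396 and 748 at 60 min. At 150 min it was at 580, 410 and 450, and at 360 min at 179, 303 and 192. The 30 min libraries lie above all 15 min libraries, and so do the 150 min libraries, while the 60 and 150 min libraries overlap.

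LHY (AT1G01060, chromosome 1, 33365 to 37871, minus strand), the close partner of CCA1, was at its dark level at 30 min. It read 53.2, 85.7 and 90.0 at 30 min, within the range of the dark libraries (66.6, 102 and 47.0), and 285, 318 and 545 at 60 min. At 150 min the values were 197, 146 and 122, and at 360 min 96.3, 5.60 and 38.1, where the second value rests on 2 reads. Its 60 min mean of 383 was 5.32 times the dark mean, with no overlap between 60 min and any other group.

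RVE2 (AT5G37260, chromosome 5, 14751344 to 14753088, minus strand), also called CIRCADIAN 1, had the highest 60 min mean of the 63 genes and was already high at 30 min. It read 543, 690 and 593 at 15 min and 1453, 1830 and 1899 at 30 min. At 60 min the values were 1091, 1243 and 3458, and at 150 min 387, 275 and 304. Its first and second 60 min libraries lie below all 30 min libraries, so the maximum of its mean at 60 min rests on the third.

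LNK3 (AT3G12320) varied little between the 60 min libraries: it read 85, 85.3 and 24.2 in the dark, 471, 535 and 515 at 30 min, and 699, 842 and 911 at 60 min. Its values of 208, 248 and 112 at 150 min overlap those of 15 min (146, 130 and 184). LNK4 (AT5G06980) read 457, 594 and 528 at 30 min, 727, 797 and 1985 at 60 min and 521, 506 and 268 at 150 min. PRR5 (AT5G24470), a repressor of CCA1 and LHY, read 54.5, 62.4 and 39.4 at 15 min, 179, 297 and 103 at 30 min, 186, 191 and 579 at 60 min, and 104, 82.5 and 26.0 at 150 min. In LNK4 and PRR5, as in RVE2, the third 60 min library was more than 2 times the mean of the others.

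**Figure D2:**
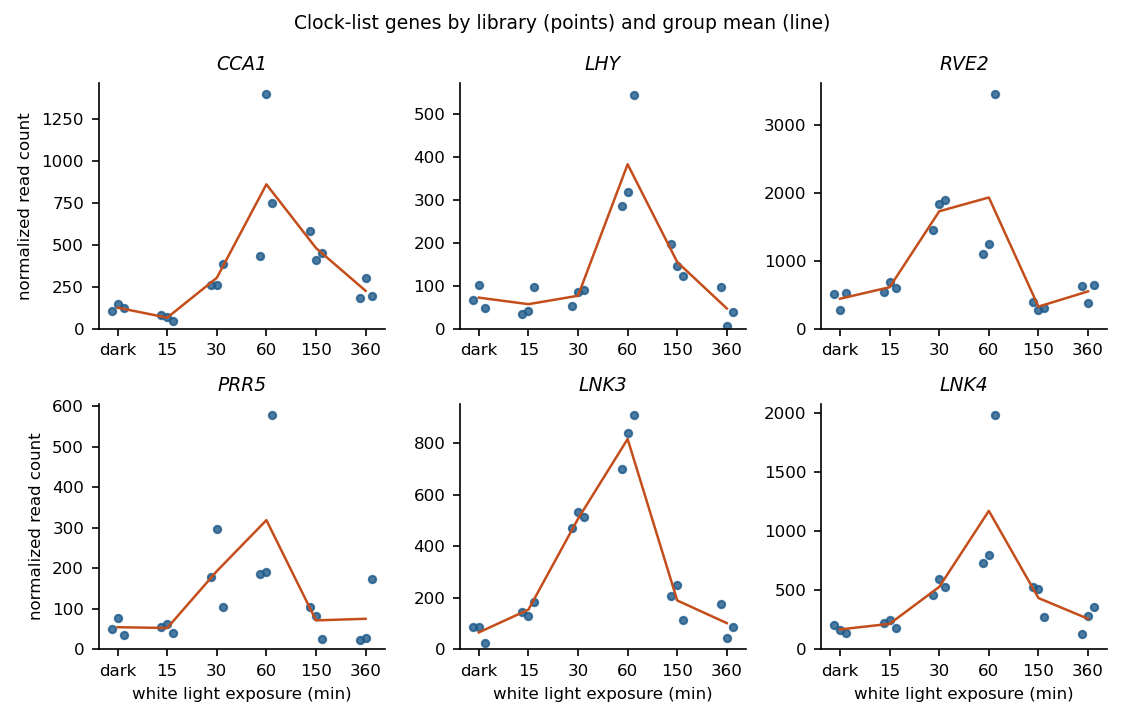
Normalized read counts (y axis, linear, from 0) of the 6 clock genes by time in WL (x axis), with each point a library, the 3 libraries of a group side by side in the order of the deposited columns, and the line through the group means. RVE2, PRR5 and LNK4 have 1 high library at 60 min, whereas the 3 libraries of LNK3 lie close together between 699 and 911.

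The DNA upstream of these genes was read from TAIR10.1 to show the light-related motifs near their starts. The windows printed here hold the matches that CCA1, LHY, RVE2, LNK3 and PRR5 have to G-box (CACGTG), PIF-binding E-box (CACATG), evening element (AAAATATCT) and CCA1-binding site (AAAAATCT) sequences in that stretch, and FRO7 is added as the gene with the largest ratio of 60 min to dark. Each is printed 5′ to 3′ on the strand of the gene, with matches on either strand in capitals.
CCA1, chr2:19245369-19245431, plus strand: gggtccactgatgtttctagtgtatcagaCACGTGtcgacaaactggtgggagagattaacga
LHY, chr1:37919-37981, minus strand: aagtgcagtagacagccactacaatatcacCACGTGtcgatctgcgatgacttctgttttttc
RVE2, chr5:14753206-14753268, minus strand: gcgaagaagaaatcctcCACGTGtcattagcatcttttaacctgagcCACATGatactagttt
LNK3, chr3:3923328-3923390, plus strand: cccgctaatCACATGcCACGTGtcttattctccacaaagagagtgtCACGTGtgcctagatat
FRO7, chr5:20208861-20208923, minus strand: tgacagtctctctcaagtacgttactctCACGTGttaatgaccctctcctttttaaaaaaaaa
PRR5, chr5:8358714-8358756, minus strand: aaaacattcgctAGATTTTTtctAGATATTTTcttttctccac
LNK3 has a PIF-binding E-box and a pair of G-boxes within this window. RVE2 has 1 of each, and in PRR5 a CCA1-binding site and an evening element lie next to each other in reverse orientation. The G-box begins 193 bases before the annotated gene start in CCA1, 80 in LHY and 118 in FRO7. LNK4 had no G-box in its window of 500 bases.

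Over all genes with such a window, 14 of 62 windows (22.6%) held a G-box, beside 8.62% of the 33436 windows of the gene table. The genes with a G-box were CCA1, LHY, RVE2, LNK3, FRO7, NAC032, BETA-OHASE 2, ABS2, CPA, PRN, RXW8, AT3G10815, AT3G56275 and AT3G57540. The PIF-binding E-box was in 27.4% of the 62 and 20.4% of all, and the evening element in 6.45% and 4.08%. The CCA1-binding site was in 14.5% and 11.8%. Of motifs linked to stress, the heat shock element (GAANNTTC) was in 27.4% and 18%, the dehydration-responsive element (DRE) core (CCGAC) in 30.6% and 22.2%, the rapid stress response element (CGCGTT) in 8.06% and 4.61%, the W-box (TTGAC) in 69.4% and 67.0%, and the GCC-box (GCCGCC) in 1.61% and 4.3%. These shares are descriptions of letters in a window on both strands. The 33436 windows include genes with a mean below 20, whereas all 62 genes reached that mean, so the sets are unlike in level. No motif is contained in another.

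**Figure D3:**
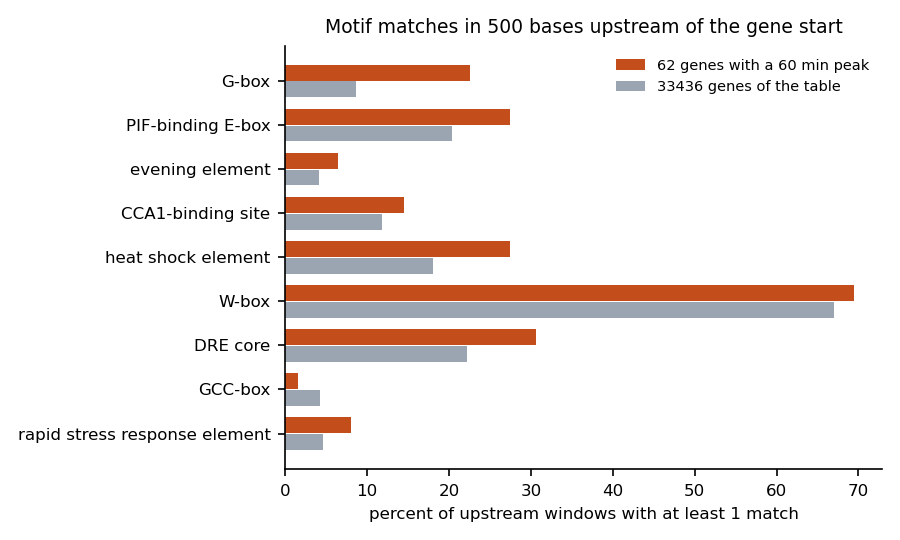
Percent of upstream windows of 500 bases with at least 1 match to each motif (x axis, from 0), for 62 of the 63 genes and for 33436 genes of the table, with no minimum mean. The G-box bars, 22.6% against 8.62%, show the largest ratio among motifs with a higher share in the 62 genes.

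Outside the clock, 3 genes belonged to a list of known responders. PKS1 (AT2G02950, chromosome 2, 854077 to 856725, minus strand) encodes phytochrome kinase substrate 1, which binds phytochromes and acts in phototropism. It read 65.1, 51.1 and 65.1 at 15 min, 191, 257 and 235 at 30 min, 321, 360 and 948 at 60 min, and 255, 228 and 197 at 150 min. The 30 and 150 min libraries overlap each other, and both groups lie above all 15 min and dark libraries.

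MBF1C (AT3G24500), a transcriptional coactivator required for heat tolerance, read 177, 141 and 161 at 15 min, 339, 587 and 640 at 30 min, and 398, 519 and 1231 at 60 min. At 150 min it was back at 205, 196 and 107, overlapping 15 min. NAC032 (AT1G77450), a stress-responsive NAC transcription factor, read 145, 147 and 186.9 at 30 min, 144, 106 and 287 at 60 min and 80.4, 167 and 85.8 at 150 min. Without the third 60 min library, the highest mean of RVE2, MBF1C, NAC032 and PRR5 is at 30 min.

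Among the genes with the largest ratio of 60 min to dark, FRO7 (AT5G49740) encodes a ferric chelate reductase of the chloroplast. It read 2.30, 6.56 and 0 in the dark, 84.6, 107 and 229 at 60 min, and 0, 0 and 9.64 at 360 min, so that the ratio of 47.5 rests on few dark reads. NRAMP6 (AT1G15960), of a family of metal ion transporters, read 19.7, 41.9 and 598 at 60 min. Its ratio of 27.1 falls to 3.81 without the third library. NRAMP6 shares 473 of its 3160 exon bases with AT1G15950 on the opposite strand, and the level of AT1G15950 was not examined. AT5G15948 read 121, 214 and 288 at 60 min against 8.04, 20.2 and 7.12 in the dark. AT5G15950, the gene with the neighbouring number, was listed at 0 in all 18 libraries, and whether its reads were assigned to AT5G15948 was not tested.

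BETA-OHASE 2 (AT5G52570), a beta-carotene hydroxylase of the path to zeaxanthin, was not narrow. It read 138, 110 and 76.4 at 60 min and 80.4, 109 and 125 at 150 min, with 13.3, 44.8 and 29.8 at 360 min. GPX3 (AT2G43350), a glutathione peroxidase, read 189, 154 and 786 at 60 min, and its ratio to dark is 5.10 with the third library and 2.32 without it. AT1G66760, at 600, 523 and 982, and AT1G72430 (SAUR78, a small auxin upregulated RNA), at 254, 197 and 738, were also among the 10 highest at 60 min.

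**Figure D4:**
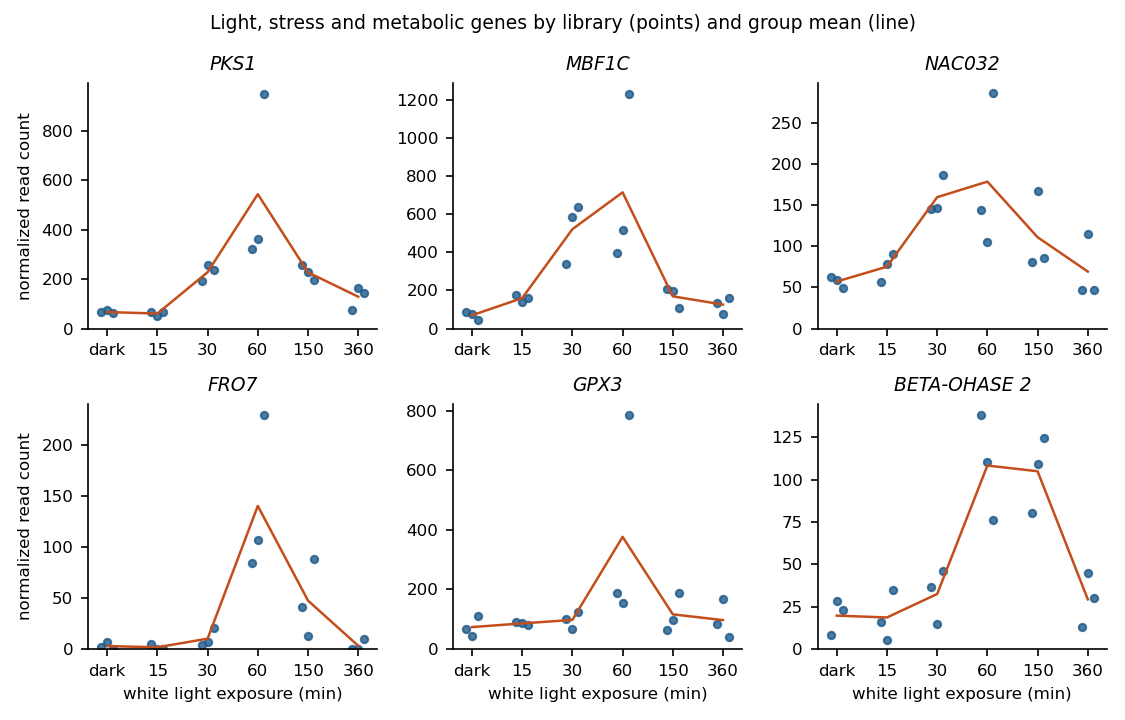
Normalized read counts (y axis, linear, from 0) by time in WL (x axis) of PKS1, MBF1C, NAC032, FRO7, GPX3 and BETA-OHASE 2, with each point a library and the line through the group means. The third 60 min library is the highest in 5 of the 6 panels, and BETA-OHASE 2 keeps its level to 150 min.

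Over all 63 genes the third 60 min column was the highest of its group for 39, and its median ratio to the mean of the first and second was 1.33, beside 1.01 for genes with a mean of at least 20. In 22 genes it was more than 2 times that mean. Without it, 52 of 63 genes have their highest group mean at 60 min, 7 at 150 min and 4 at 30 min. In 47 the 60 min mean is then at least 3 times the dark mean. The first and second columns also took part in choosing the genes, so these counts are descriptions only. The 3456713 reads of the third column outside 23S RNA were more than those of the other columns at 60 min. That total nearly equals the 3456720 counts of replicate 3, the library with 3.37% of its counts on 23S RNA. The first and second columns, at 1999666 and 3079405, nearly equal replicates 1 and 2, at 1999671 and 3079395. Whether the high values of the third column go with its low 23S share was not tested. The same rule without the third column gave 86 genes, of which 41 were among the 63.

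The sets of 60 and 30 min libraries did not overlap, with 60 min higher, in 41 of the 63 genes, and those of 60 and 150 min in 32. These figures were 8.08% and 6.2% of genes with a mean of at least 20. The 60 min libraries lay above all 360 min libraries in 43 of the 63 genes, and in the rest these groups overlap. The share over all genes was not computed for 360 min. Since the 60 and 360 min values chose the genes, nothing is read from these counts.

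The first independent comparison asks whether the genes were already rising between 15 and 30 min. They were tested with edgeR's quasi-likelihood method on gene counts over all 18 libraries, with Benjamini-Hochberg adjustment over 16747 genes and a threshold of 0.01. Of the 63 genes 59 could be tested. FRO7, AT5G46900, AT1G09794 and AT5G16950 had 0 counts in at least 2 replicates of a group and had been removed.

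At 30 against 15 min the median log2 fold change of the 59 genes was 0.51 (all genes 0.00), and 50 of the 59 were positive. None was called by edgeR, as for all genes (0.0% called). At an unadjusted p below 0.05, 13 were higher, beside 1.04% of all genes, and none was lower. The 13 included CCA1, AT2G46670, PKS1, MBF1C, LNK3, RVE2, LNK4 and PRR5. CCA1 had a log2 fold change of 2.17 (SE 0.42), with an adjusted p of 0.0554 (edgeR, Benjamini-Hochberg). DESeq2 called 3 higher, namely CCA1, AT2G46670 and PKS1, beside 0.102% of all genes with an adjusted p. In 21 of the 63 genes the 30 min libraries lay above all 15 min libraries, beside 6.21% of genes with a mean of at least 20.

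Between these 2 time points the same-numbered libraries had positive correlations of deviations from group means (0.173, 0.424 and 0.271). Over all groups, differently numbered libraries reached 0.537, so these values do not establish that the libraries were paired. With the replicate block in a fit of the 15 and 30 min libraries alone, a choice made after the data were seen, 9 of the 59 genes were called higher and none lower, beside 0.394% of all genes called higher. They were RVE2, LNK3, CCA1, PKS1, MBF1C, LNK4, AT2G46670, PRR5 and SPS2F, a sucrose-phosphate synthase. RVE2 had a log2 fold change of 1.5 (SE 0.15, edgeR adjusted p = 4.41e-05) and LNK3 of 1.73 (SE 0.18, edgeR adjusted p = 4.77e-05). With the block over all 18 libraries none was called. Of the clock genes among the 59, LHY had the smallest value in the fit without the block, at 0.40 (SE 0.58).

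The second comparison, 150 against 30 min, asks on which side of the peak the level was higher. RVE2 fell by 2.41 on the log2 scale (SE 0.42, edgeR adjusted p = 0.00112), the only one of 59 genes called lower, beside 0.161% of all genes. None was called higher, beside 1.51%. DESeq2 called RVE2 lower, beside 0.667% of all genes, and IQD12 higher, beside 3.01%. At an unadjusted p below 0.05, RVE2, MBF1C, LNK3 and PRR5 were lower (3.44% of all genes) and IQD12, BETA-OHASE 2 and RXW8 higher (7.6%). MBF1C stood at -1.61 (SE 0.44, edgeR adjusted p = 0.0456) and IQD12, of a family of calmodulin-binding proteins, at 2.03 (SE 0.60, edgeR adjusted p = 0.0740).

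The call of RVE2 was lost without replicate 2 (edgeR adjusted p = 0.0147) or replicate 3 (0.0108) of the 150 min group, at -2.31 and -2.34 log2. The 150 min libraries lay below all 30 min libraries in 7 of the 63 genes (11.1%), beside 12.7% of genes with a mean of at least 20, and above them in 14 (22.2%), beside 13.5%.

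The third comparison, 150 against 15 min, asks whether the level after the peak was above that at 15 min. CCA1 rose by 2.89 log2 (SE 0.43, edgeR adjusted p = 1.06e-04), AT2G46670 by 5.60 (SE 1.05, edgeR adjusted p = 0.00136) and PKS1 by 1.90 (SE 0.42, edgeR adjusted p = 0.00608). These 3 of 59 were called higher, beside 2.47% of all genes, and none was called lower. Their 15 min means were 0.521, 0.274 and 0.907 times the dark means. Against dark, with no test, their log2 fold changes at 150 min were 1.97, 3.81 and 1.78, smaller than against 15 min. AT2G46670 held only 6, 0 and 2 reads in the 15 min columns, and it shares sequence with PRR9. At an unadjusted p below 0.05, 16 were higher, beside 9.12%, and RVE2 was lower. In 24 of 63 genes the 150 min libraries lay above all 15 min libraries, beside 15.1%.

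DESeq2 called 7 genes higher at 150 than at 15 min, beside 4.32% of all genes, adding IQD12, AT5G12010, AT5G15948 and BETA-OHASE 2. The call of PKS1 did not hold without any 1 replicate of the 15 min group, without replicate 1 or 2 of the 150 min group, or with the replicate block (edgeR adjusted p = 0.01001). That of AT2G46670 did not hold without replicate 2 or 3 of the 15 min group (edgeR adjusted p = 0.0140 and 0.0109). The median log2 fold change of the 59 genes was 0.52 here and 0.23 at 150 against 30 min, with all genes at -0.02 and -0.03. The 3 comparisons share groups and are not independent of each other.

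**Figure D5:**
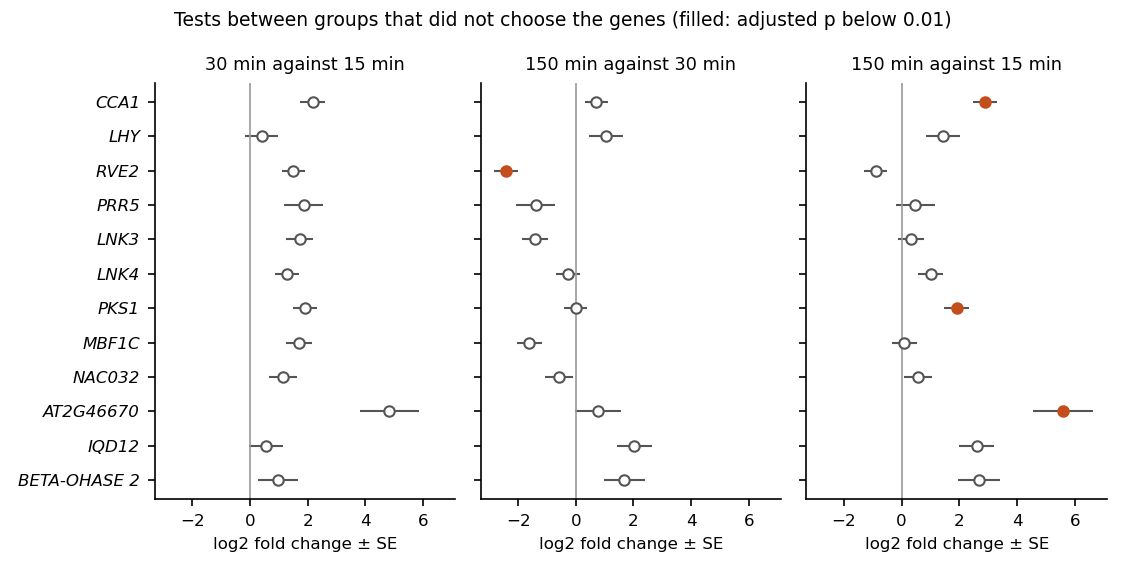
Log2 fold change (x axis) with its SE for 12 of the genes in the 3 comparisons of 15, 30 and 150 min, from edgeR's fit over 18 libraries, with filled points for an adjusted p below 0.01. The filled points are RVE2 at 150 against 30 min and CCA1, PKS1 and AT2G46670 at 150 against 15 min.

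Some of the 63 genes share sequence with other genes, and their counts are uncertain. AT2G46670 (chromosome 2, 19164357 to 19165233, minus strand) matches PRR9 over stretches of 333 bases at 100% and 440 bases at 99.3% identity, out of 784 exon bases. It read 158, 349 and 255 at 60 min, against 1.72, 9.84 and 5.69 in the dark. PRR9 itself, a pseudo-response regulator of the morning, had a dark mean of 14.2, against 113 at 30 min and 255 at 60 min. Its mean was then 64.4 at 150 min and 31.5 at 360 min. Summed, the pair went from 19.9 in the dark to 509 at 60 min and 41.6 at 360 min. The sum was highest at 60 min too, with 16.2 at 15 min, 161 at 30 min and 145 at 150 min.

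AT1G25211 matches 4 other genes at 99.8% identity over 1527 bases or more. It went from 45.2 in the dark to 141 at 60 min, but the sum over these 5 genes was 338 in the dark and 339 at 60 min. AT1G53880 shares 1356 of its 1410 exon bases with AT1G53900 at 100% identity, and their sum went from 38.4 in the dark to 160 at 60 min. IQD12 matches AT1G76705 at 96.25% identity over 160 of its 1741 exon bases.

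Exons of 24 genes overlap those of another gene, in 23 cases on the opposite strand, and the listed settings for assigning reads include no strand option. AT1G21313 and AT1G75785 lie wholly within exons of EXT3 (an extensin) and TUB1 (a tubulin). AT1G21313 had a mean of 76.0 in the dark and 315 at 60 min, but its sum with EXT3 was 2345 and 2676. AT1G75785 read 186, 152 and 209 at 60 min while the mean of TUB1 was 78.4 there and 165 in the dark, and the sum was 215 in the dark and 261 at 60 min. The antisense RNA AT2G44255 had a mean of 30.5 in the dark and 96.7 at 60 min, while AT2G44260 on the other strand went from 26.4 to 1.96, with a sum of 56.9 and 98.7.

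The share of a gene's TPM on its leading transcript is a measure that did not choose the genes. Of the 63 genes, 18 had 1 transcript listed and 26 had at least 2 transcripts of 10% or more. Of 25 with reads in all 6 dark and 60 min libraries, only BETA-OHASE 2 had shares that did not overlap (differing by more than 0.1 percentage points), beside 13.4% of 6355 genes taken the same way with a mean of at least 20. AT2G35360 had no reads in 1 dark library, with 47.0% and 82.3% in the others against 100% in each 60 min library. In BETA-OHASE 2 the leading transcript took 67.5%, 0% and 71.9% in the dark and 100%, 100% and 84.2% at 60 min. In ADF6, an actin depolymerizing factor, the shares were 0%, 0% and 100% in the dark and 100% in each 60 min library, so the groups overlap. AT3G56275, AT5G58790 and AT1G77350, which with BETA-OHASE 2 and ADF6 had the largest change in mean share, also overlapped. An exact permutation test of 3 against 3 libraries cannot go below p = 0.1, and none was made on these shares.

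The rest of the pathways is given for genes outside the 63, at 60 min against dark. Of 17 other clock genes tested, 2 were called higher by edgeR, RVE1 at 2.60 (SE 0.46, adjusted p = 0.00186) and RVE7 at 2.69 (SE 0.31, adjusted p = 1.75e-05). Both are MYB relatives of RVE2. They were at 3.59 and 4.03 times the dark mean at 360 min, and so were outside the rule. Over all genes 0.8% were called higher and 0.0478% lower.

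Of 30 other early light signalling genes, 14 were called higher by edgeR, with a median log2 fold change of 2.31 (all genes 0.02). SIG5, a plastid sigma factor, was at 6.37 (SE 0.47, edgeR adjusted p = 5.10e-08), and its mean of 908 at 60 min was followed by 1204 at 150 min and 1064 at 360 min. HY5, a bZIP factor that promotes photomorphogenesis, had means of 2627, 3124 and 2552 at these times. The mean of PKS1 was 543 at 60 min and 129 at 360 min, a fall that the rule required of it.

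Of 33 other heat shock genes, 9 were called higher by edgeR, with a median log2 fold change of 1.12. HSFA2, a heat shock factor, had means of 6.97 in the dark, 300.0 at 30 min, 267 at 60 min and 71.6 at 360 min. HSP70-4, a chaperone, had 2141 at 60 min and 1615 at 360 min. HSFA7B, another heat shock factor, had means of 92.8 in the dark and 16.8 at 60 min (log2 fold change -2.49, SE 0.66, edgeR adjusted p = 0.0616), and DESeq2 called 1 gene of the list lower. Over all lists 25 genes outside the 63 were called, but 14, 11 and 13 without dark replicate 1, 2 or 3. In the 7 further lists (stress transcription factors, touch, jasmonate, splicing factors, PP2C phosphatases, endoplasmic reticulum stress and polyubiquitin) edgeR called none of 97 genes. At an unadjusted p below 0.05, 10 of these were higher and 3 lower, and DESeq2 called 3 higher.

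The limits of the rule cut through a continuum. AT5G40630 and AT3G10815 had the lowest means inside it (20.5 and 20.8), and RLP46 and NF-YA2 lay just outside (19.98 and 18.9). For the ratio of 60 min to dark, AT1G72430 (3.02) and AT1G66760 (3.05) were just inside and AT1G53035 (2.997) and AT1G32740 (2.97) just outside. The same inner genes were nearest for the ratio of 60 to 360 min, at 2.01 and 2.02, with AT4G38290 (1.97) and AT4G24026 (1.89) outside. For the ratio of 360 min to dark, IQD12 (1.997) and RXW8 (1.98) were inside, and AT2G47935 (2.04) and Fes1A (2.08) outside. For the lowest 60 min value over the highest dark value, AT4G14615 and PRN were inside at 1.00 times, with GSTU20 (0.9998) and AT2G29995 (0.978) outside. Genes that failed only 1 condition numbered 58, 101, 9, 26 and 76 in this order.

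The lowest 60 min library of a gene held at least 7 reads, with a median of 34. At 360 min 12 of the 63 genes had 0 reads in the first column, 6 in the second and 1 in the third, and the first and second columns held 2233957 and 2297842 reads outside 23S RNA against 10821472 in the third. A value of 0 there allows up to 3 reads and covers counting error only.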

How the data were processed

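The authors quantified quality-filtered single reads against the transcripts of AtRTD2-QUASI by kallisto and deposited an estimated count and a TPM value for each of 82190 transcripts in each of 18 libraries. A second table the authors deposited holds 1 signal value per gene and library (counts divided by a DESeq size factor). All values of that table (100.0%) are whole multiples of 1 read within 0.1. Its columns are lettered and were tied to groups by name. At 60 and 360 min, the read totals of columns A, B and C outside 23S RNA nearly equal those of replicates 1, 2 and 3. The kallisto settings listed in the methods include no strand option. The labels and the paper's methods differ in light intensity and library protocol, and neither was used.

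Gene counts were made as tximport's lengthScaledTPM, rounded, and filtered for genes with 0 counts in at least 2 replicates of a group, which left 16747 of 34212. TMM normalization and edgeR 4.0.16 quasi-likelihood tests (R 4.3.3) ran over all 18 libraries without a replicate block. Benjamini-Hochberg adjustment was used with a threshold of 0.01. The SE given with an edgeR fit is the absolute log2 fold change divided by the square root of the test's F statistic. Counts for all 18 libraries were also simulated from the means and spread of this fit, with changes placed in the 30 min group only. At 30 against 15 min (16463 genes), the test called 12 of 98 genes changed by 2 on the log2 scale. It called 71 of 93 changed by 4, and 0 of 16272 unchanged. Replicate pairs of a group differed by 21.6 to 129 times the degrees of freedom in chi-square without 23S RNA, and the biological coefficient of variation was 0.540. Replicate numbers were checked by correlating deviations from group means: 11 of 45 same-numbered pairs exceeded 0.1, including all 3 between 15 and 30 min. A fit of these groups alone with the replicate block was therefore added, and a block over all 18 libraries was run as an alternative only. Differently numbered pairs from different groups reached 0.537, above the highest same-numbered pair (0.424), so pairing is not established. P-values measure the spread between 3 biological replicates.

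The genes, lists, motifs and tests were chosen with earlier results of these data known. Named are genes in the lists, the 10 highest at 60 min, the 10 largest ratios to dark, up to 5 called per direction, the 2 on each side of each limit and the 5 largest changes in transcript share. Other names were chosen after their values were seen. Symbols, positions and upstream windows come from RefSeq on TAIR10.1, matched by locus tag for 62 of the 63 genes. Copies were sought with blastn among annotated exons, at an identity of at least 95% over at least 100 bases. DESeq2 1.42.0, other counts, filters, scalings and left-out replicates were the alternatives.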

Additional observations from a re-analysis of the deposited data

Results flagged for a closer look

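In 4 cases a gene's level differed between 2 time points after the start of WL by a direct test (edgeR, Benjamini-Hochberg, adjusted p below 0.01). RVE2 fell by 2.41 on the log2 scale from 30 to 150 min, a call lost without replicate 2 (edgeR adjusted p = 0.0147) or 3 (0.0108) of the 150 min group. CCA1 was higher at 150 than at 15 min by 2.89, AT2G46670 by 5.60 and PKS1 by 1.90. AT2G46670 held only 6, 0 and 2 reads at 15 min and shares sequence with PRR9. The call of AT2G46670 was lost without replicate 2 or 3 of the 15 min group (edgeR adjusted p = 0.0140 and 0.0109), and that of PKS1 without any 1 of 5 of the 6 libraries compared (edgeR adjusted p = 0.0229 to 0.0529). Light exposure and elapsed time cannot be told apart.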

How the results depend on the processing

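The rule gave 63 genes as reported, 73 on TMM-normalized counts (59 of the 63 among them), 71 on TPM (45 shared), 63 on reads thinned to equal depth (47 shared) and 36 with a minimum mean of 50. Leaving out 1 of the 9 dark, 60 min and 360 min columns in turn gave between 58 and 138 genes. The highest counts, 138 and 129, came without the first or second 60 min column, where 56 of the 63 were kept each time, and 86 came without the third (41 shared). Leaving out the shallow 360 min columns, a choice made after the data were seen, gave 73 genes, of which 39 were shared. At 30 against 15 min 0 genes were called as reported, 0 without any 1 replicate, 3 by DESeq2 and 9 with the replicate block in the 15 and 30 min libraries alone (added after the data were seen), against 0 with the block over all 18 libraries. At 150 against 30 min DESeq2 called 2 genes, and 0 to 1 were called without 1 replicate, with 0 without replicate 2 or 3 of the 150 min group. At 150 against 15 min DESeq2 called 7, and 1 to 3 were called without 1 replicate, with 1 without replicate 2 or 3 of the 15 min group. The block over all libraries called 2. Of the list genes outside the 63, 25 were called at 60 min against dark, and 11 to 24 without 1 replicate, with 14, 11 and 13 without dark replicate 1, 2 or 3. Over all genes edgeR called 280 at 150 against 30 min and 485 at 150 against 15 min, DESeq2 567 and 864, and edgeR without 1 replicate 123 to 206 and 253 to 396. At 60 min against dark edgeR called 142 genes, DESeq2 332 (37 of the list genes), and edgeR 67, 81 and 81 without dark replicate 1, 2 or 3. The median log2 fold changes kept their sign under every alternative run. PKS1 at 150 against 15 min was not called with library totals without 23S RNA (1.89, edgeR adjusted p = 0.0291). The cause of these differences was not tested. With whole reads recovered from the table, edgeR called 0, 1 and 3 genes in the 3 comparisons.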
